A study of Mus musculus with 4 samples.

Results

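The 9 genes described here are Gfy, Ugt2a1, Omp, Gng8, Stoml3, Cnga2, Ano2, Adcy3 and Gnal, which were chosen by symbol from the 19465 genes listed in the count tables as genes of olfactory sensory neurons and of the sustentacular cells around them. Spatial RNA sequencing (spRNA-seq, Visium) was run on coronal head sections, fixed in formalin and embedded in paraffin, of wild-type C57BL/6J embryos at E14.5 and E15.5, with no treatment. Each stage had 2 capture areas, each of them 1 library: replicate 1 as a single section, and replicates 2, 3 and 4 together as 3 sections, which are called A, B and C because the labels do not say which is which. The study describes its spRNA-seq as biologically replicated, but no label ties a section to an embryo, so p-values measure the spread between these libraries, which may in part be technical.

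The olfactory epithelium lines the upper part of the nasal cavity. Odorants there bind receptors on the cilia of sensory neurons, a G protein activates an adenylyl cyclase, and cyclic AMP opens a cation channel whose calcium current is amplified by a chloride channel. Sustentacular cells stand between the neurons and carry enzymes that clear odorants. Gnal encodes the olfactory stimulatory G alpha subunit and Gng8 a G gamma subunit of immature olfactory and of vomeronasal neurons. Adcy3 encodes the adenylyl cyclase, Cnga2 the main subunit of the cyclic nucleotide-gated channel and Ano2 the calcium-activated chloride channel. Omp encodes olfactory marker protein of mature neurons, Stoml3 a stomatin-like membrane protein of their cilia, Gfy the Golgi protein Goofy, and Ugt2a1 a UDP-glucuronosyltransferase of sustentacular cells.

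All positions follow the GENCODE M21 annotation of GRCm38, in which all 9 are protein-coding genes. Gfy (chr7:45176349-45179569, minus strand), Omp (chr7:98143359-98145502, minus) and Gng8 (chr7:16891786-16895436, plus) share a chromosome. Ugt2a1 lies at chr5:87459490-87490871 (minus), Stoml3 at chr3:53488653-53508502 (plus), Cnga2 at chrX:71991849-72010218 (plus), Ano2 at chr6:125690419-126040126 (plus), Adcy3 at chr12:4133103-4213525 (plus) and Gnal at chr18:67088216-67226792 (plus). Ugt2a1 shares exons with Ugt2a2, which the tables do not list, so its counts are uncertain between the pair.

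A unique molecular identifier (UMI) counts 1 captured molecule, and a spot is a small disc of tissue under which a mixture of cells may lie. The 6357 tissue spots held between 15438992 and 109127953 UMIs per capture area, with a median per spot of 6752 UMIs in the E14.5 replicate 1 area and between 45059 and 64051 in the other 3. The 9 genes differed widely in how many UMIs stood behind their values: 12027 for Adcy3, 7656 for Gfy, 5946 for Gng8, 5585 for Ugt2a1, 1922 for Omp, 367 for Gnal, 333 for Stoml3, 212 for Cnga2 and 29 for Ano2. Levels are given as CPM, the UMIs of a gene per 1000000 UMIs of the spots summed. They were not compared between genes, since capture per gene is not known.

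Olfactory spots were found without the 9 genes. They were tissue spots with at least 3 UMIs of a separate list of olfactory genes and a list level of at least 3 times that of their section. The list held Rtp1, Rtp2, Cnga4, Cngb1, Umodl1, Kirrel2, Cyp2g1 and Trpc2. Of the 8 genes in the list 6 are listed in the tables, and of its 2170 UMIs 1422 were Rtp2, a chaperone of odorant receptors, and 493 Kirrel2, an adhesion protein of olfactory axons. This gave 195 olfactory spots: 17 at E14.5 in replicate 1 and 67 in replicates 2 to 4, and 57 and 54 likewise at E15.5. Of these, 139 lay in the largest patch of adjoining spots of their section. They were found in 7 of the 8 sections. The E15.5 section C had 0, and its list level was 1.22 CPM against 5.0 to 19.0 CPM in the others, so results are also given without it. Olfactory spots were deeper than the rest in 6 of 7 sections, for example a median of 88832 against 58538 UMIs in the E14.5 section B, and the 3-UMI minimum favours deep spots.

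The epithelial genes of the group were concentrated in the olfactory spots. Gfy, Ugt2a1, Stoml3 and Cnga2 were between 17.3-fold and 27.2-fold higher there than in the other tissue spots, and Omp and Gng8 were 7.79-fold and 6.67-fold higher. Adcy3 was 1.34-fold higher, and Gnal did not differ by the test. In counts, 7 of the 8 members that passed the filter on low counts were called higher and 0 lower, where 17.3% of all 13677 genes tested were called higher and 16.3% lower. The median log2 fold change was 3.54 over the 8 members and 0.00 over all genes. The question was put to a model with the capture area as a term (edgeR's quasi-likelihood test, 8 sums from 4 areas), with a call at an adjusted p under 0.1. Where a spot sum differs, fewer cells of a type and less RNA per cell cannot be told apart.

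Gfy stood at 296 and 290 CPM in the olfactory spots at E14.5 (replicate 1, then replicates 2 to 4) and at 247 and 552 CPM in those at E15.5. In the other spots it stood at 14.4, 11.9, 8.30 and 15.2 CPM in the same order. The lowest olfactory value was thus over 10 times the highest value elsewhere, and the ratio within an area ran from 20.6 to 36.2. The fitted log2 fold change was 4.77 (SE 0.15, edgeR adjusted p = 4.37e-06), the 10th largest of 13677 genes. The olfactory spots held 4409 of the 7656 Gfy UMIs, and the share by area was 54.8% ± 12.5 (SD, n = 4). The spot with most Gfy, in the E15.5 replicate 1 section, held 130 UMIs of it among 157120.

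Ugt2a1, the sustentacular gene, followed Gfy closely although it belongs to another cell type. Its level in the olfactory spots was 359 and 187 CPM at E14.5 and 243 and 317 CPM at E15.5, against 17.4, 7.49, 9.92 and 8.40 CPM in the other spots. Again the ranges of the areas did not overlap. Its log2 fold change of 4.71 (SE 0.16, edgeR adjusted p = 4.49e-06) was the 11th largest. The share of its UMIs that lay in olfactory spots was 54.2% ± 10.9 (SD, n = 4 areas). Across the spots of a section, log levels of Gfy and Ugt2a1 had a mean Pearson correlation of 0.76 over the 7 sections with olfactory spots (0.47 to 0.85), the highest of the 36 pairs of members, and of 0.03 in the E15.5 section C. These spots share a library and a depth, and the values are descriptive.

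Stoml3 and Cnga2 showed the same concentration on far fewer UMIs. Stoml3 measured 2.13 and 9.83 CPM in the olfactory spots at E14.5 and 13.7 and 20.5 CPM at E15.5, and between 0.50 and 0.67 CPM in the other spots of all 4 areas. The value of 2.13 in the E14.5 replicate 1 area rests on 1 UMI (exact 95% Poisson interval 0.05 to 11.8 CPM, for counting error only). Its log2 fold change was 4.41 (SE 0.32, edgeR adjusted p = 0.000107). Cnga2, the channel subunit, measured 4.25 and 6.17 CPM in the olfactory spots at E14.5 and 5.95 and 13.1 CPM at E15.5, against 0.29 to 0.60 CPM elsewhere. Its log2 fold change was 4.11 (SE 0.35, edgeR adjusted p = 0.000195). Both were higher in the olfactory spots in 7 of 7 sections.

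Omp and Gng8 were enriched to a lesser degree and were also counted across the rest of the head. Omp measured 40.4 and 35.3 CPM in the olfactory spots at E14.5 and 38.2 and 55.2 CPM at E15.5, against 5.88, 5.23, 6.34 and 4.19 CPM in the other spots. Its log2 fold change was 2.96 (SE 0.21, edgeR adjusted p = 0.000103), and 26.4% ± 6.5 (SD, n = 4 areas) of its UMIs lay in the olfactory spots. Gng8 measured 115 and 85.6 CPM in the olfactory spots at E14.5 and 115 and 142 CPM at E15.5, against 14.3 to 17.3 CPM elsewhere. Its log2 fold change was 2.74 (SE 0.13, edgeR adjusted p = 2.26e-05), and 24.2% ± 7.1 (SD, n = 4 areas) of its UMIs lay in the olfactory spots. For neither gene did the 2 kinds of spots overlap.

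Adcy3, the cyclase of the cascade, was counted in most of the head. It measured 53.1 and 51.8 CPM in the olfactory spots at E14.5 and 60.3 and 62.2 CPM at E15.5, against 37.4, 42.6, 43.5 and 42.5 CPM in the other spots. Every olfactory value exceeded every value elsewhere, but by little. The log2 fold change was 0.42 (SE 0.09, edgeR adjusted p = 0.0102), which was not called when tested against a log2 fold change of 1. By section the olfactory spots were higher in 6 of 7. The exception was the E14.5 section A, with 59.3 CPM in the olfactory spots and 61.3 CPM elsewhere.

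Gnal, the G alpha subunit, was not called in either direction, and Ano2, the chloride channel, was barely counted. Gnal measured 2.13 and 0.96 CPM in the olfactory spots at E14.5 and 1.23 and 1.41 CPM at E15.5, on 16 UMIs in all, and 2.54, 1.42, 0.87 and 1.33 CPM in the other spots. The ranges overlapped, with a log2 fold change of -0.05 (SE 0.34, edgeR adjusted p = 0.949). Ano2 had 29 UMIs in all, of which 10 were in the olfactory spots, and no spot held more than 1. It did not pass the filter on low counts. Without the filter, or without the E14.5 replicate 1 area, it was tested and 8 of 9 members were called higher. Of all genes, 2178 of 19153 and 2405 of 14893 were called higher in these fits, in the same order.

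**Figure D1:**
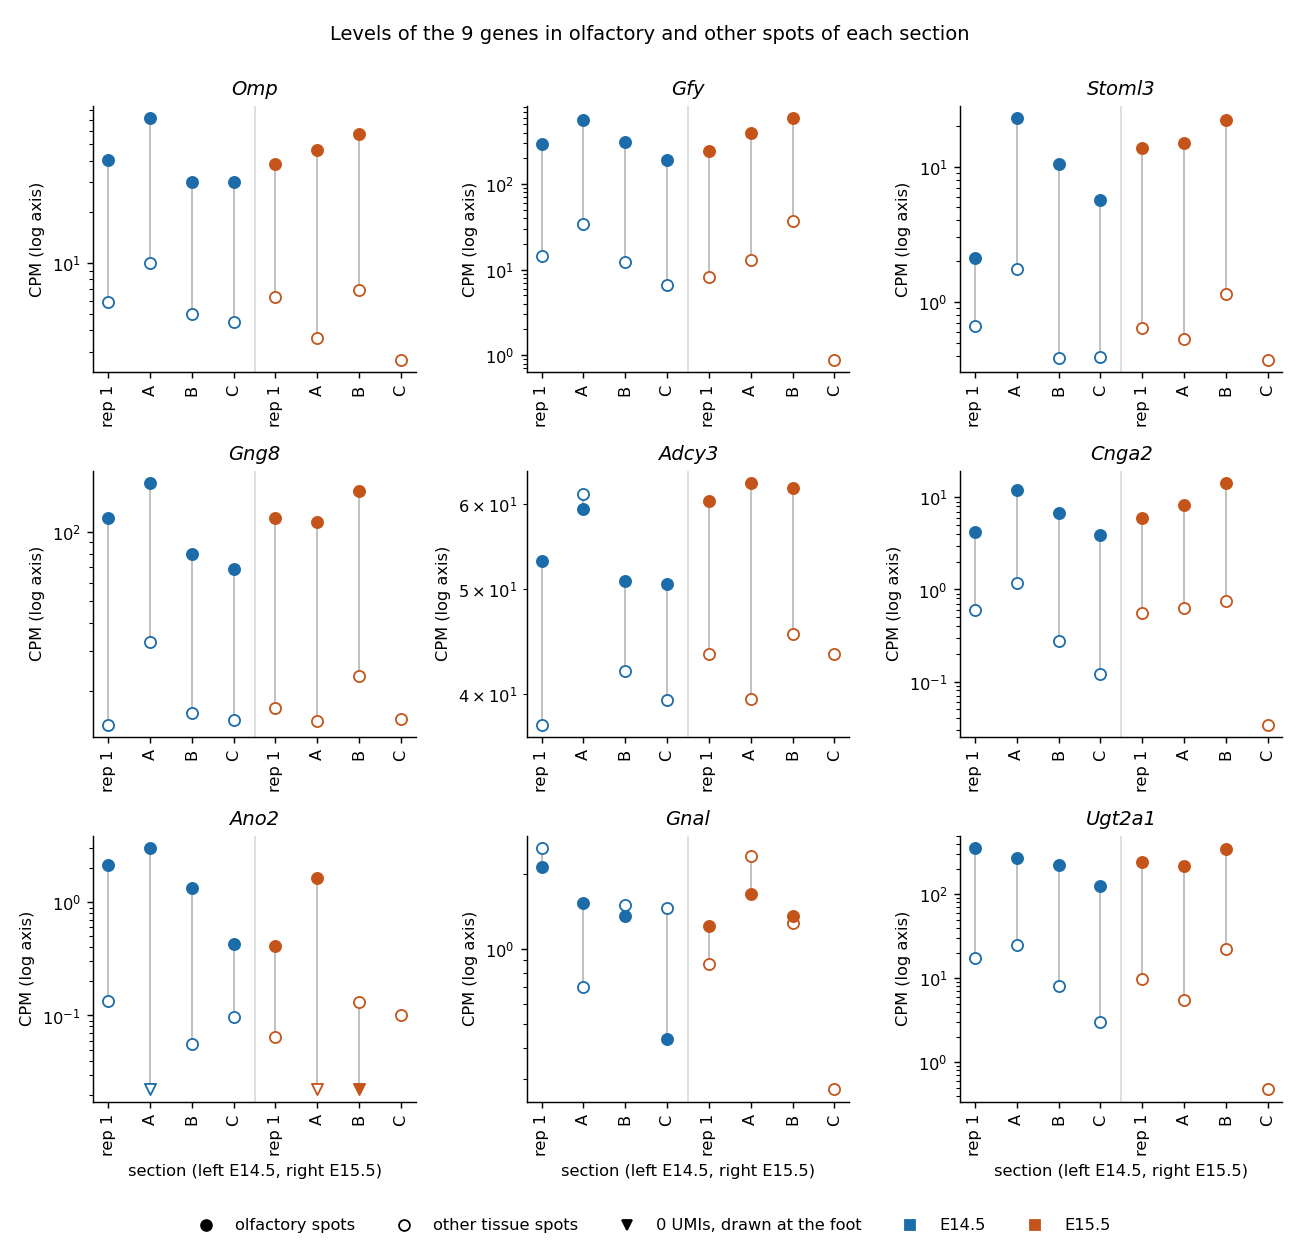
Level of each of the 9 genes in the olfactory spots (filled circles) and the other tissue spots (open circles) of each section, in CPM on a log axis, with E14.5 in blue on the left of each panel and E15.5 in orange on the right. Grey lines join the 2 values of a section, and triangles mark 0 UMIs. The filled circles lie above the open ones in 7 of 7 sections for Gfy, Ugt2a1, Omp, Gng8, Stoml3 and Cnga2, in 6 for Adcy3 and in 3 for Gnal, and the E15.5 section C has open circles only.

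Markers of neighbouring tissues moved with the same comparison. All 5 of 5 cartilage markers were higher in the olfactory spots, with a summed level of 5147 to 9389 CPM by area against 1742 to 3933 CPM elsewhere, and Col2a1, Acan and Matn1 were among them. The same held for 5 of 5 multiciliated epithelium markers (40.4 to 102 CPM against 17.3 to 31.8 CPM), which include Foxj1. Of 3 sensory ganglion markers tested, Prph, an intermediate filament of peripheral neurons, was higher, and the summed level of the list was 119 to 159 CPM against 19.7 to 50.9 CPM. Markers of bone, muscle, surface epidermis, basal epithelium, retina and cortical neurons were lower, 27 of 27 tested. The part of these tissues in the levels of the 9 genes was not tested.

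The 150 bases that precede the start site are shown for 4 of the 6 members with the strongest enrichment, since these genes were high in the same spots. Of the 9 genes 7 were searched, as Omp had no start site in the RefSeq set used and Gnal was left out of the search. Sequences come from RefSeq (GRCm38.p6) and run 5′ to 3′ on the strand of the gene. They were searched for the palindrome TCCCNNGGGA, known as the site of EBF (Olf/EBF) transcription factors, and for its core CCCNNGGG, within 250 bases before the start. Both motifs read the same on both strands, and the first contains the second. Capitals mark a match, and distances count from the RefSeq start.
Gfy (chr7:45179598-45179747, minus): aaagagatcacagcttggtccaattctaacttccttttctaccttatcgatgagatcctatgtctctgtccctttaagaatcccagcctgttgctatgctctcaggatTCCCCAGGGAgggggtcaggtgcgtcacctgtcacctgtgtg
Ugt2a1 (chr5:87490872-87491021, minus): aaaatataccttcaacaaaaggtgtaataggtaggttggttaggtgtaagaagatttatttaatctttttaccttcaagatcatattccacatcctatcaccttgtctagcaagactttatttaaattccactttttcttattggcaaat
Cnga2 (chrX:71991699-71991848, plus): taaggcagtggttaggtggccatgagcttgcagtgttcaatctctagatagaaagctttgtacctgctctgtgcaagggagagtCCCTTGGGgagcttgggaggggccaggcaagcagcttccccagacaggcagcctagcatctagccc
Gng8 (chr7:16891636-16891785, plus): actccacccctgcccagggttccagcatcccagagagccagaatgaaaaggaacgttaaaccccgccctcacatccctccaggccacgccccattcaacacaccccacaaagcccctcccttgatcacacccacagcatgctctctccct
The whole palindrome was found before Gfy, where it began 42 bases before the start site, and in 0.779% of the 32851 windows of the table. The core alone was found before Cnga2, 66 bases before the start, and in 1 of 3 windows of Ano2, and in 11.8% of all windows. The core was added after the Cnga2 window had been read. A match is a description of these letters only, and the windows of Ugt2a1, Stoml3, Gng8 and Adcy3 held neither.

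The maps of single spots showed where the UMIs lay. In the E14.5 section B and the E15.5 replicate 1 section, Gfy and Ugt2a1 formed a dense patch that coincided with the ringed olfactory spots. Gng8 shared this patch and was also counted in much of the tissue outside it. In the E14.5 section B, 867 of 1044 Gng8 UMIs lay outside the olfactory spots, as did 665 of 1355 of Gfy and 440 of 938 of Ugt2a1. In the E15.5 replicate 1 section, 1053 of 1614 of Gng8, 518 of 1723 of Gfy and 619 of 1804 of Ugt2a1 lay outside them. Adcy3 was counted over nearly all tissue.

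**Figure D2:**
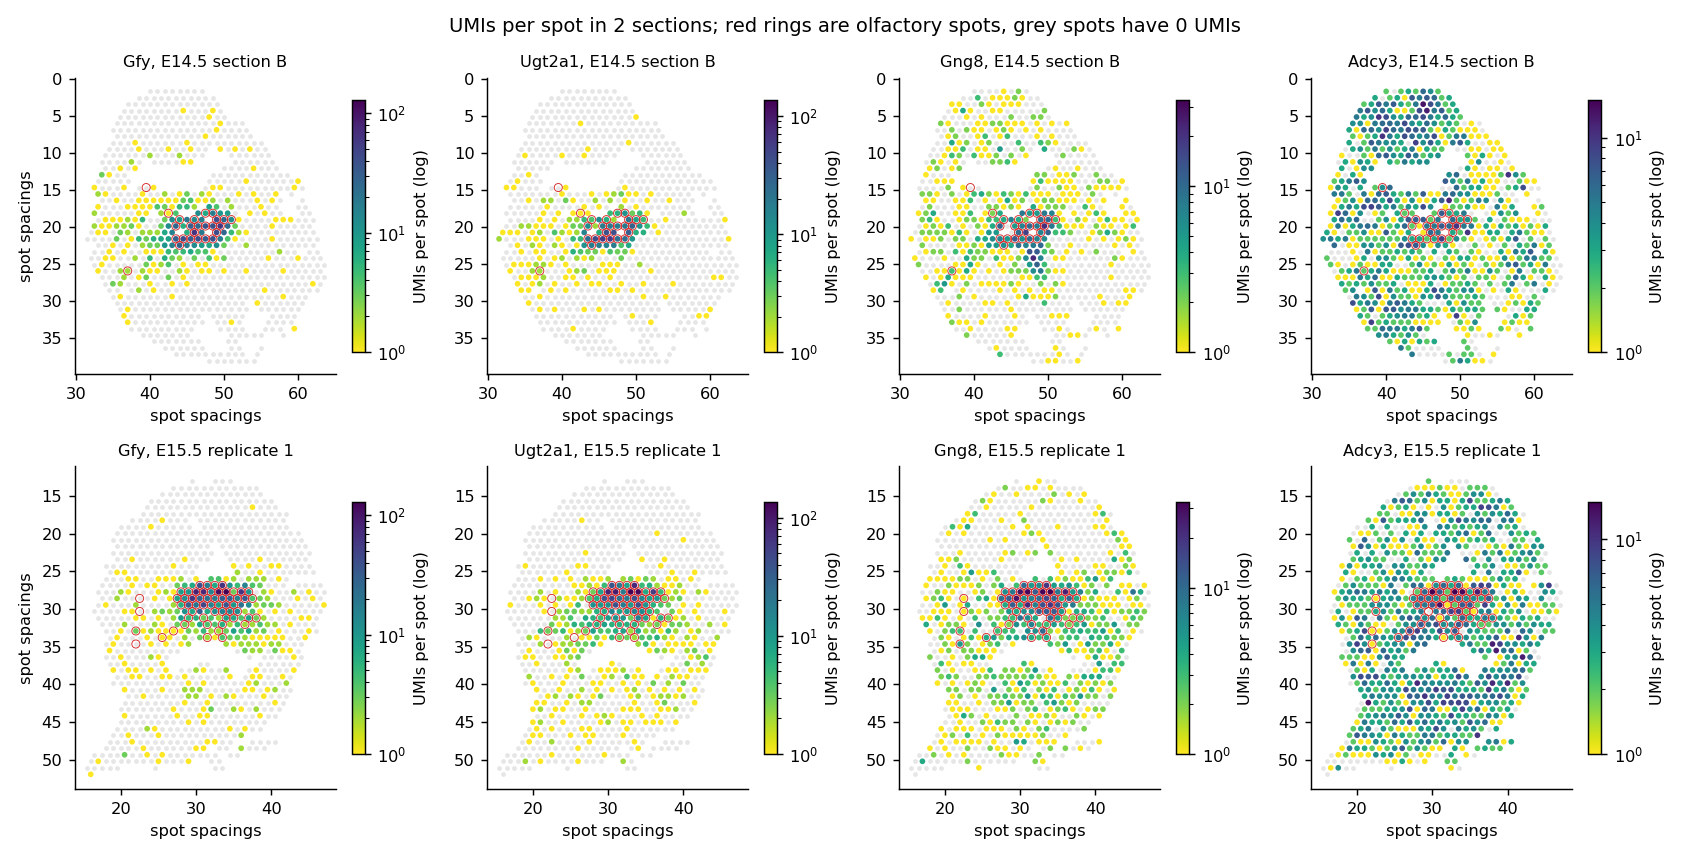
UMIs per spot of Gfy, Ugt2a1, Gng8 and Adcy3 (colour, log scale) in the E14.5 section B (912 spots, top) and the E15.5 replicate 1 section (987 spots, bottom), with both axes in spacings between neighbouring spots. Red rings mark the 25 and 57 olfactory spots and grey spots have 0 UMIs. Gfy and Ugt2a1 reach their highest values, 130 and 137 UMIs in a spot, inside the rings.

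With distance from the olfactory spots, the levels fell at different rates. In the spots next to an olfactory spot, Gfy was at 29.8% and Ugt2a1 at 29.6% of their levels in the olfactory spots, Stoml3 at 30.4%, Cnga2 at 37.4%, Omp at 39.8% and Gng8 at 46.0% (means of 4 areas). More than 8 spacings away, Gfy had fallen to 0.949% and Ugt2a1 to 1.08%, while Omp and Gng8 were still at 9.41% and 9.48%. Adcy3 remained at 70.2% and Gnal at 97.4%. For Gfy these steps correspond to 346 ± 139, 103 ± 55.0, 28.9 ± 14.4, 15.3 ± 10.1, 6.99 ± 4.95 and 3.28 ± 2.38 CPM (SD, n = 4 areas) in olfactory spots, next to them, at 2 spacings, at 3 to 4, at 5 to 8, and beyond.

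The proportions between the genes changed along the same path. Gng8 had 25.8 to 46.6 UMIs per 100 UMIs of Gfy in the olfactory spots of the 4 areas and 199 to 1187 beyond 8 spacings, and the proportion was higher beyond 8 spacings in 4 of 4 areas. For Omp the same ranges were 10.0 to 15.4 and 49.7 to 465, again higher in 4 of 4. Ugt2a1 had no common direction. Per 100 UMIs of Gfy it had 122 in the olfactory spots and 133 beyond 8 spacings in the E14.5 replicate 1 area, 64.6 and 100 in the E14.5 area of replicates 2 to 4, 98.3 and 150 in the E15.5 replicate 1 area, and 57.5 and 43.8 in the E15.5 area of replicates 2 to 4. Within the E15.5 replicate 1 area it ran from 88.1 to 172 over the 6 steps.

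**Figure D3:**
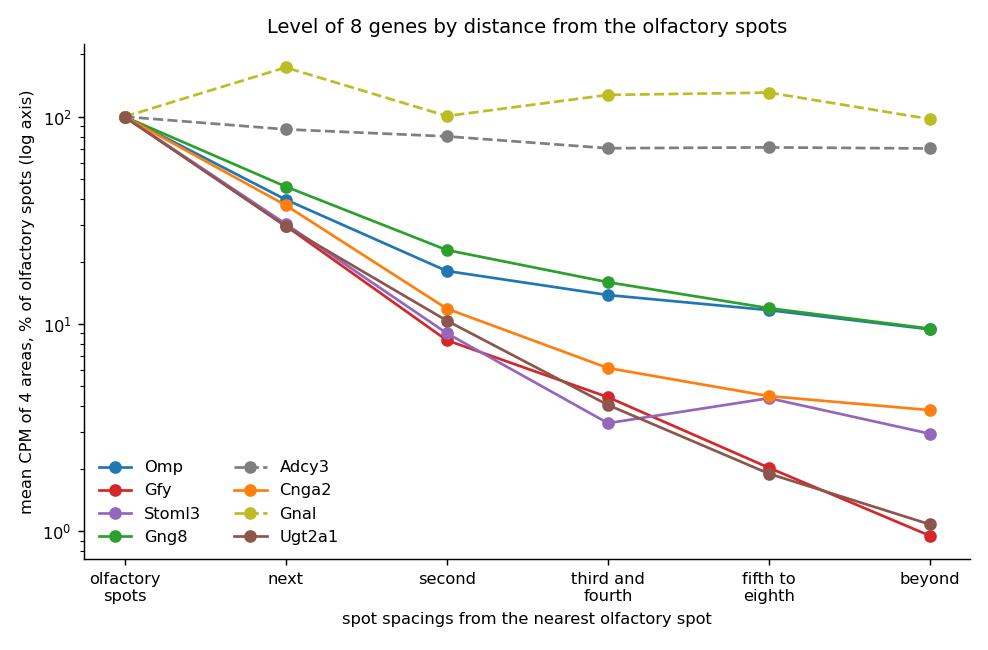
Level of 8 genes by distance from the nearest olfactory spot, as a percentage of the level in the olfactory spots (mean CPM of 4 areas, log axis), with Ano2 left out for its 29 UMIs. Gfy and Ugt2a1 fall to about 1%, Omp and Gng8 to between 9% and 10%, and Adcy3 and Gnal (both dashed) stay at about 70% or more.

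Spots of other tissues, chosen in the same way from marker lists of their own and with the olfactory spots left out, gave the order of levels for each gene. Of the 195 olfactory spots, 110 also met the sensory ganglion list, 55 the cartilage list and 44 the multiciliated epithelium list. Nasal gland spots, found in 1 area only (10 spots, a median of 1 spacing from olfactory spots), were left out of the order, with 114.9 CPM of Gfy, 52.5 of Ugt2a1, 18.1 of Omp, 44.3 of Gng8 and 72.2 of Adcy3. For Gfy, Ugt2a1, Omp and Gng8 the olfactory spots came first, at 346, 277, 42.2 and 114 CPM on average, and the ranges of the 4 areas did not overlap with those of the sensory ganglion spots in the next place (61.2, 51.8, 11.5 and 44.4 CPM). Below that, cartilage and multiciliated epithelium spots had ranges that overlapped with their neighbours in the order. Of the tissues in the order these 3 lay closest to the olfactory spots, each at a median of 2.65 spacings. Stoml3 and Cnga2 came first in the olfactory spots as well, but the ranges of the areas overlapped with the sensory ganglion spots. With 4 areas the smallest p an exact two-sided permutation test over paired areas can give is 0.125, so this test could not reach 0.1, and no model was fitted between single tissues.

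Adcy3 and Gnal had another order. Adcy3 was at 56.9 ± 5.2 CPM in the olfactory spots, 56.6 ± 9.1 in ensheathing and Schwann glia spots and 55.2 ± 9.9 in sensory ganglion spots (SD, n = 4 areas), which differed by less than the spread between areas, and was lowest in the retina spots at 30.0 CPM. Gnal was highest in the ventral forebrain spots, those with striatal markers such as Drd1, at 4.39 and 3.20 CPM at E14.5 and 1.40 and 9.37 CPM at E15.5. The cortical neuron spots followed at 2.35 CPM, and the olfactory spots were 6th of the 14 groups found in every area, at 1.43 CPM. Gnal was higher in the ventral forebrain than in the olfactory spots in 4 of 4 areas (exact permutation p = 0.125, the smallest possible), on 68 and 16 UMIs. In the adult, Gnal is known as the stimulatory G alpha subunit of striatal neurons too.

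**Figure D4:**
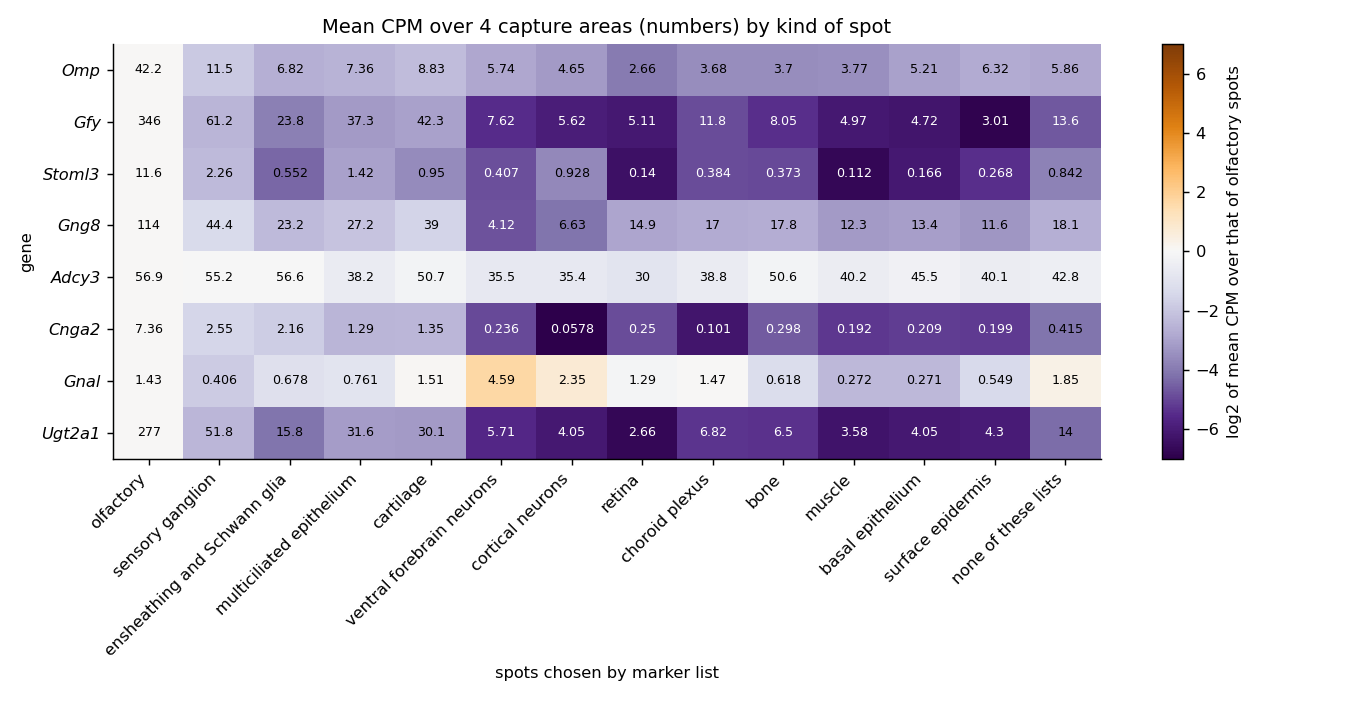
Mean CPM over the 4 capture areas (numbers) of 8 genes in 14 groups of spots, each chosen by a marker list without the 9 genes, except that the last holds the spots of no list. Colour gives the log2 ratio to the olfactory spots, so that purple is lower and orange higher. Gnal is the gene with values above those of the olfactory spots, highest in the ventral forebrain (4.59 CPM) and cortical neuron spots (2.35 CPM).

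The E15.5 section C, which had no olfactory spot, held little of some members and not of others. Gfy was at 0.88 CPM (26 UMIs) there, 2.31% of its mean over the 7 other sections, Ugt2a1 at 0.48 CPM (14 UMIs, 1.81%) and Cnga2 at 0.03 CPM (1 UMI, 3.31%). Stoml3 was at 24.2%, Omp at 32.6% and Gng8 at 61.7% of the mean of the others. Adcy3 was at 97.4%, Ano2 at 81.8% on 3 UMIs and Gnal at 17.8% on 8 UMIs. Gfy, Ugt2a1 and Cnga2 were lowest relative to the other sections. At 24.2%, Stoml3 was less reduced than these. Its 0.37 CPM in this section (11 UMIs) was close to its level beyond 8 spacings elsewhere, 0.34 ± 0.23 CPM (SD, n = 4 areas). Gnal, which had not fallen with distance, was not ranked against Stoml3. Their exact Poisson intervals in this section, for counting error only, overlapped (0.12 to 0.54 CPM for Gnal and 0.19 to 0.67 CPM for Stoml3).

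Other genes of the olfactory epithelium were read from a list of 63, of which 58 are listed in the tables and 53 were tested. In the olfactory spots 28 of the 53 were higher and 8 lower, beside 17.3% and 16.3% of all genes. Of 8 transcription factors of olfactory neurons 7 were higher, led by Fezf1, a zinc finger repressor, at 25.6 ± 6.5 against 1.27 ± 0.31 CPM, and Ebf2 at 463 ± 89.0 against 57.2 ± 6.8 CPM (SD, n = 4 areas), with log2 fold changes of 4.26 (SE 0.23) and 2.98 (SE 0.08). Of 8 progenitor genes 7 were higher, led by the neurogenic factors Neurog1 (156 ± 24.9 against 10.9 ± 6.3 CPM, log2 fold change 4.07) and Nhlh1 (253 ± 36.3 against 25.5 ± 13.3 CPM, 3.47), while Krt5 of basal cells was lower.

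The G protein and receptor transport genes were mixed. Gng13, a G gamma subunit of mature olfactory neurons, stood at 145 and 152 CPM in the olfactory spots at E14.5 and 140 and 233 CPM at E15.5, against 6.86 to 8.02 CPM elsewhere (log2 fold change 4.49, SE 0.15, edgeR adjusted p = 4.37e-06). Reep6 was higher by 0.85 on the log2 scale, and of the 6 genes 3 were higher and 2 lower. Of 6 sustentacular and gland genes tested 4 were higher, led by Ermn, an actin-linked protein (28.7 ± 8.7 against 2.36 ± 1.03 CPM, log2 fold change 3.70), and Cbr2, a carbonyl reductase (2.05). Of 6 genes of mature neurons and zones 2 were higher and 2 lower, with Calb2, which encodes calretinin, at 2.91 and Kirrel3 at -0.66 on the log2 scale.

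The immature neuron, channel, arrestin and vomeronasal genes of the list were mixed as well. Of 6 immature neuron genes 1 was higher, Ablim1 (log2 fold change 0.43), and 1 lower, the microtubule protein gene Dcx (-0.77). Of 8 channel and calcium signalling genes 3 were higher and 1 lower, among them the phosphodiesterase Pde4a at 0.66, and Slc4a1 was at -0.76 without passing the test. Arrb2, an arrestin, was higher by 0.40, and the receptor kinase Grk3 was at -0.19 and not called. Of 3 vomeronasal signalling genes 0 were higher and 1 was lower, Meis2 (-0.68), with Gnai2 at -0.13 and not called. Each of the calls in this list was made by edgeR at an adjusted p under 0.1.

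Several members had the same genes among those whose levels across spots were most like their own. Over 13021 candidate genes with at least 500 UMIs, Gng13 was among the 3 most alike for Gfy (mean r = 0.65 over 8 sections), Ugt2a1 (0.62), Gng8 (0.46), Omp (0.36), Stoml3 (0.34) and Cnga2 (0.27). The homeobox gene Uncx was among them for Gfy (0.62), Gng8 (0.43), Omp (0.35) and Cnga2 (0.27), and the aldehyde oxidase gene Aox2 for Ugt2a1 (0.62), Stoml3 (0.34) and Cnga2 (0.28). Fam107a completed the list for Gfy (0.62) and Gng8 (0.44), Rtp2 for Ugt2a1 (0.62), S100z for Omp (0.34) and Acsm4 for Stoml3 (0.33). For Gnal the closest were Scg5 (0.17), Gria4 (0.16) and Nova2 (0.16), and for Adcy3 Kctd12, Col16a1 (both 0.21) and Rarg (0.20). For Ano2 they were Neurog1 (0.22), Cldn9 and Kif19a (both 0.12), on 29 UMIs. These correlations are across spots that share a library, and lower counts give lower values.

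The stages were compared to see whether the olfactory genes changed over this day of development. No member was called between E14.5 and E15.5 by edgeR, in the olfactory spots (7 tested) or over all tissue spots (8 tested). In the olfactory spots 0% of 12578 genes were called, with 345 at an unadjusted p under 0.05 and 0 calls by DESeq2. Over all tissue spots 0% of 15609 genes were called, with 930 at an unadjusted p under 0.05 and 28 calls by DESeq2, of which 0 were members.

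Within the olfactory spots the 7 fitted changes were all above 0. Stoml3 had the largest, 0.95 on the log2 scale (SE 0.47, edgeR adjusted p = 0.993), from 2.13 and 9.83 CPM at E14.5 to 13.7 and 20.5 CPM at E15.5. The E14.5 and E15.5 areas did not overlap for Stoml3, nor for Gng8 (0.35, SE 0.25), where 114.8 and 115.1 CPM were all but equal, and Adcy3 (0.16, SE 0.24). They overlapped for Cnga2 (0.59, SE 0.54), Gfy (0.39, SE 0.33), Omp (0.27, SE 0.29) and Ugt2a1 (0.04, SE 0.29). Ano2, which was not tested, had 2.13 and 1.16 CPM at E14.5 and 0.41 and 0.35 CPM at E15.5, on 10 UMIs. Without the E15.5 area of replicates 2 to 4, which has the highest values of Gfy, Omp and Cnga2, the change of Gfy was -0.29, that of Ugt2a1 -0.17, that of Omp -0.017 and that of Cnga2 -0.020. Without the E14.5 area of replicates 2 to 4 that of Stoml3 was 2.96, with E14.5 resting on 1 UMI.

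Over all tissue spots, where the share of a section taken up by epithelium enters, the changes were 0.67 for Stoml3 (SE 0.45), 0.46 for Cnga2 (SE 0.47), 0.19 for Gfy (SE 0.27) and for Gng8 (SE 0.28), 0.05 for Adcy3 (SE 0.24), 0.04 for Omp (SE 0.34), -0.01 for Ugt2a1 (SE 0.35) and -0.84 for Gnal (SE 0.48). Of all UMIs, 3.05% and 4.77% lay in olfactory spots at E14.5 and 7.24% and 3.26% at E15.5. That share varied more between areas of a stage than between the stages.

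**Figure D5:**
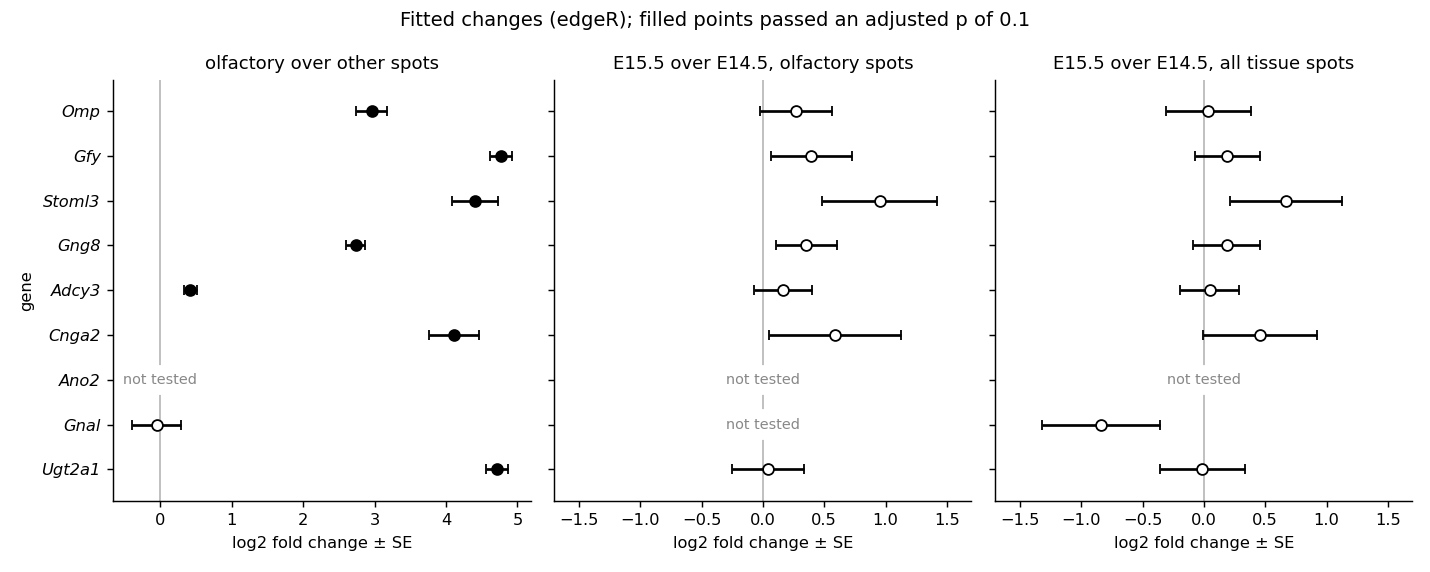
Fitted log2 fold changes with their standard errors (edgeR) of the members tested, which leaves out Ano2 in all panels and Gnal in the middle one: olfactory against other spots (left), and E15.5 against E14.5 in the olfactory spots (middle) and over all tissue spots (right). Filled points were called at an adjusted p under 0.1. All 7 filled points are in the left panel.

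The enrichment itself was compared between the stages with a term for region by stage. Of 14196 genes 0% were called by edgeR, with 714 at an unadjusted p under 0.05 and 1 call by DESeq2, and 0 of the 9 members were called. The estimate was above 0, that is, towards a stronger enrichment at E15.5, for 8 of the 9, with Gfy at 0.55 (SE 0.19, unadjusted p = 0.0185, edgeR adjusted p = 0.930) and Ano2 at -1.56 (SE 1.29). Calls in this comparison, of members and of other genes alike, depended on which library was left out. Without the E15.5 replicate 1 area the estimates were 0.68 for Gfy, 0.72 for Ugt2a1 and 0.96 for Omp. That fit assumes that the remaining E15.5 area varies like the others. Without the E15.5 section C the members gave 0 calls.

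The balance of Omp and Gng8 did not move beyond counting error. Of the summed UMIs of Omp and Gng8 in the olfactory spots, Omp made up 26.0% (exact 95% binomial interval 16.5% to 37.6%) and 29.2% (25.7% to 32.9%) at E14.5 and 24.9% (21.8% to 28.2%) and 27.9% (24.2% to 31.8%) at E15.5. All 4 intervals overlap, as do those of the 7 sections, which ran from 24.9% to 30.3%. These intervals hold counting error only, and no test between the stages was run on this balance. Both genes were also counted elsewhere in the head, so whether neurons matured between the stages was not tested.

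The balance of Gfy and Ugt2a1 differed by library. Gfy made up 45.1% (39.5% to 50.9%) of the UMIs of the pair in the E14.5 replicate 1 area and 50.4% (48.4% to 52.4%) in the E15.5 replicate 1 area. It made up 60.8% (58.8% to 62.7%) and 63.5% (61.6% to 65.4%) in the areas of replicates 2 to 4 at E14.5 and E15.5. By section, replicates 2 to 4 ran from 58.1% to 67.0%, all above both replicate 1 sections. The replicate 1 areas were processed with another version of Space Ranger than the other areas, and replicate and version cannot be told apart. Intervals cover counting error only.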

How the data were processed

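Raw UMI counts of each gene in each spot, and the spot positions, were deposited by the authors, made with Space Ranger 1.3.1 (replicate 1 areas) and 2.0.0 (the other areas) per the file headers and not normalized. The submitters' processing notes name mm10 as the build, and the probe set is not given in the sources used here. All tissue spots with counts were kept. The 19 barcodes off tissue and 12 tissue spots without counts were left out, and 88 spots belonged to no section. The 9 genes, the marker lists and the pathway list were chosen with earlier results of these data known. UMIs were summed over olfactory and other spots of each capture area and fitted with edgeR 4.0.16 in R 4.3.3 (quasi-likelihood test, TMM, filterByExpr, Benjamini-Hochberg adjustment over all genes tested, call under 0.1). The stages were set 2 areas against 2. DESeq2 1.42.0 was the other tool. The fits were tested on simulated data. Of the pathway list, the text names in each role the 2 tested genes with the largest absolute change between olfactory and other spots, and for each member the 3 genes with the highest mean Pearson correlation of log2(1 + 10000 × UMIs / spot total). Other genes named as part of a list stand as examples. The alternatives were no TMM, no filter, a log2 fold change of 1 as the null, a threshold of 0.05, each area left out, a replicate block, sections as samples, thinned counts, other settings of the olfactory spots, and neighbours of olfactory spots left out. Leaving out the E15.5 section C and a minimum of 2 list UMIs were chosen after seeing the data. Single values of some marker genes are not reported here.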

Additional observations from a re-analysis of the deposited data

Results flagged for a closer look

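Over both stages, 45 comparisons of 4 sections of a stage were made, and 5 were flagged. All 5 were of the E14.5 section A, whose gap to the nearest of the other 3 E14.5 sections was larger than Dixon's 95% limit for 4 values allows. This section could stand apart only in the comparisons at E14.5, which are fewer than 45. Chance gives this in about 1 in 20 such groups, and the 5 results come from 1 section, so they are not independent. Over all its tissue spots the section had 71.8 CPM of Gfy against 16.7 to 24.1 in the other 3, 14.4 CPM of Omp against 5.86 to 6.94, 42.3 CPM of Gng8 against 17.4 to 18.6, and 3.25 CPM of Stoml3 against 0.67 to 0.78. Outside the olfactory spots it had 33.0 CPM of Gng8 against 14.3 to 16.0. Its median depth was 10037.5 UMIs per spot, and 59411 and 65616 in the sections B and C of the same library. The part of depth or section level in this was not tested.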

How the results depend on the processing

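The count of 7 members called higher in the olfactory spots ran from 6 to 8 over all alternatives, and the called member that lost its call was Adcy3, against a log2 fold change of 1. Of all genes, 873 were called in that test and 2712 to 4971 with an area left out, the lowest values being 2712 without the E14.5 area of replicates 2 to 4 and 2870 without the E15.5 replicate 1 area. Gnal, not called, reversed to 0.071 with the list without Kirrel2 and Cngb1 and to 0.088 with a minimum of 2 list UMIs, and ran from -0.31 to 0.20 with an area left out.

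No member was called between stages under any alternative. Over all genes the calls over all tissue spots were 28 by DESeq2 and 0 to 78 with an area left out (78 without the E15.5 replicate 1 area). In the olfactory spots they were 22 with no filter, 8 with a list level of at least 5 times, 2 with sections as samples and 0 to 20 with an area left out. With the replicate block they were 15 in the olfactory spots and 0 over all tissue spots, with 0 members in both. Areas with the same replicate label deviated together with a correlation of 0.20 over genes for all tissue spots and -0.08 for the olfactory spots, and with 2 pairs and no label of a shared animal or day they were not treated as paired.

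Uncalled stage changes that reversed over all tissue spots were, with sections as samples, Gfy at -0.082, Omp at -0.33, Gng8 at -0.14 and Adcy3 at -0.11, and Ugt2a1 at 0.037 without TMM, 0.027 with no filter, 0.090 with thinned counts and 0.26 without the section C. With an area left out Ugt2a1 ran from -0.34 to 0.38, Omp from -0.27 to 0.31 and Adcy3 from -0.078 to 0.19. In the olfactory spots Ugt2a1 was at -0.059 with a list level of at least 2 times and -0.053 with the list without Kirrel2 and Cngb1. With an area left out Gfy ran from -0.29 to 0.87, Ugt2a1 from -0.36 to 0.48, Omp from -0.017 to 0.52 and Cnga2 from -0.020 to 1.11.

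For the difference of the enrichment between stages, 1 gene was called by DESeq2, 106 with a list level of at least 5 times, 5 without the section C and 0 to 935 with an area left out, of which 0 to 3 were members. Cnga2 reversed to -0.057 with a list level of at least 2 times and to -0.27 without the section C, and Gnal to -0.079 with a minimum of 2 list UMIs. With an area left out Omp ran from -0.19 to 0.96, Gng8 from -0.11 to 0.57, Cnga2 from -0.77 to 1.32 and Adcy3 from -0.0061 to 0.21. The cause of these changes was not tested. The share of UMIs in the olfactory spots moved by less than its SD over areas for all 9 members under the 3 other spot settings. Over the 6 deeper sections Gnal and Ano2 kept 1 of their 3 most alike genes and the other 7 members 2 or 3. Ano2, Gnal, Cnga2 and Stoml3 are limited by depth, above all in the E14.5 replicate 1 area.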

Other observations

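Away from the olfactory spots, Gng8 was also high in small groups of spots. Because they were chosen by Gng8 itself, its counts beside those of Gfy follow in part from the choice. These spots were picked after the maps had been seen, as spots neither olfactory nor next to an olfactory spot with at least 3 Gng8 UMIs and a level of at least 3 times that of the section, so no test was run on them. There were 26 such spots in the E14.5 section B, with 151 UMIs of Gng8, 47 of Gfy and 20 of Ugt2a1, and 19 in the section C, with 90, 13 and 1. The E15.5 section C, which had no olfactory spot, had 26, with 101 UMIs of Gng8, 5 of Gfy and 0 of Ugt2a1, which were 22.7% of its Gng8 UMIs. In the other 5 sections there were 2 to 20 such spots, and the E14.5 section A had 22 UMIs of Gng8 beside 20 of Gfy, the E15.5 section A 70 beside 34 and the E15.5 section B 7 beside 5. Gfy itself was higher in these spots than in the remaining spots away from the olfactory spots in 7 of 8 sections, for example at 31.4 against 5.82 CPM in the E14.5 section B, and at 190 against 18.0 CPM in the E14.5 section A, where it had the highest ratio of all genes with at least 20 UMIs.

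Genes with at least 20 UMIs in these spots were ordered by their ratio to the remaining spots. The homeobox genes Hmx2 and Hmx3, the insulin receptor substrate gene Irs4, the guanine nucleotide exchange factor gene Rasgrp1 and Samd3 were among the 8 highest in the E14.5 sections B and C. None of them was among the 20 highest in any other section. In the section B, Hmx2 was at 16.7 against 0.44 CPM and Rasgrp1 at 136 against 11.6 CPM, and in the section C they were at 40.8 against 4.69 CPM and 144 against 17.1 CPM. In the E15.5 section C the highest ratio was that of the homeobox gene Nkx6-1, at 19.1 against 3.45 CPM. Matn1, a cartilage matrix gene, was among the 20 highest in 4 of the 8 sections, for example at 586 against 194 CPM in the E15.5 section C.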
